A study of Mus musculus with 12 samples.

Results

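Genes of antigen presentation by the major histocompatibility complex (MHC) were examined in RNA-seq profiles of primary microglia, the macrophages that reside in brain tissue, sorted by flow cytometry from mouse midbrain. The set holds every gene symbol in the deposited table that starts with H2-, the mouse MHC prefix, together with B2m, Tap1, Tap2, Tapbp, Tapbpl, Erap1, Nlrc5, Cd74, Ciita, Cd80, Cd86 and Cd40. This gave 46 of the 21135 symbols, from 121 rows that were summed per symbol, and 23 of the 46 passed the filter on low values. Samples labelled WT have the genotype Ppargc1a FF and those labelled KO the genotype Ppargc1a FF CreER, in which tamoxifen activates the recombinase CreER. Ppargc1a encodes PGC-1alpha, a coactivator of mitochondrial genes. Every group was sampled 6 weeks post tamoxifen, after MPTP, a toxin of dopaminergic neurons, or after PBS. For the animals' age and strain, any pooling of animals and the promoter that drives CreER, the sources used here give nothing. The same holds for whether replicates were different animals. The p-values therefore rest on profile-to-profile spread alone, which may be technical.

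Of 12 deposited columns, 3 for each of 4 groups, 6 were arithmetic copies of others and carry no error of their own. The 6 separate profiles are replicates 1 and 2 of WT PBS, replicate 1 of WT MPTP, replicates 1 and 2 of KO PBS, and replicate 2 of KO MPTP, and values below are given in that order. KO PBS 2 also stands, times 1.02, under KO MPTP 1, and the table does not show which treatment it had. It was therefore left out wherever treatment matters and used where only genotype is compared. None of the 121 rows of these genes departed from the copy relations. Values are taken as FPKM, fragments scaled to transcript length and to the mapped total, so levels can be compared between genes. Column sums ran from 388861 to 434022, and the read depth is unknown. Ppargc1a was 5.70, 6.21 and 2.72 FPKM in the WT profiles and 0.33, 0.12 and 0.42 FPKM in the KO profiles.

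The label microglia was set against marker genes. All 9 macrophage markers in the table averaged at least 1 FPKM, with Lyz2 at 1095, Cd68 at 479 and Adgre1 at 130.3 FPKM on average, and Csf1r and Trem2, which macrophages also express, lay at 117 and 127 FPKM. Of the markers that set microglia apart from other macrophages, Sall1 was listed at 0 in every profile, and Cx3cr1, P2ry12 and Siglech averaged 0.05, 0.19 and 0.03 FPKM. Some markers of other antigen-presenting cells were at or near 0: Pax5 and Ms4a1 of B cells, and Flt3, Xcr1, Cd209a and Ccr7 of dendritic cells, averaged at most 0.035 FPKM. Others on these lists were higher. Cd22, Fcrla and Cd79b of the B cell list averaged 2.44, 0.438 and 0.357 FPKM. Batf3 and Zbtb46 of the dendritic cell list averaged 1.74 and 0.998 FPKM. Of the whole lists, 1 of 7 B cell and 2 of 9 dendritic cell markers averaged at least 1 FPKM, and the lists summed to between 3.14 and 3.50 and between 90.1 and 103 FPKM per profile. Itgax, at 95.4 FPKM, makes up most of the latter sum and is shared by dendritic cells and macrophages. In such bulk RNA, fewer cells of a type and less RNA per cell cannot be told apart.

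MHC class I molecules show peptides from the cytosol to CD8 T cells. A heavy chain pairs with beta-2-microglobulin in the endoplasmic reticulum, where the TAP transporter delivers peptides, tapasin helps to load them and the peptidase ERAP1 trims them. MHC class II molecules show peptides from endosomes to CD4 T cells: an alpha and a beta chain are guided by the invariant chain Cd74 and loaded with the help of H2-DM, which H2-O restrains. NLRC5 and CIITA are the coactivators that switch on class I and class II genes, and both act through a shared arrangement of promoter elements. Resting microglia are known for low class II, which interferon gamma raises.

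Transcripts of class I chains and of all 7 class I assembly genes were present in every profile, while those of the class II chains were at or near 0. B2m, the light chain, averaged 1059 ± 58.2 FPKM (SD over 6 profiles, here and for the other levels) and ranked 46 among all symbols. The classical heavy chain genes H2-D1 and H2-K1 averaged 207 ± 11.9 and 151 ± 8.38 FPKM. The 4 class II chain genes H2-Aa, H2-Ab1, H2-Eb1 and H2-Eb2 summed to between 0.03 and 0.09 FPKM per profile, and no single value exceeded 0.06 FPKM. Cd74, the invariant chain, nonetheless averaged 224 ± 15.4 FPKM, above H2-D1, while Ciita lay at 0.04 or 0.05 FPKM in every profile.

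**Figure D1:**
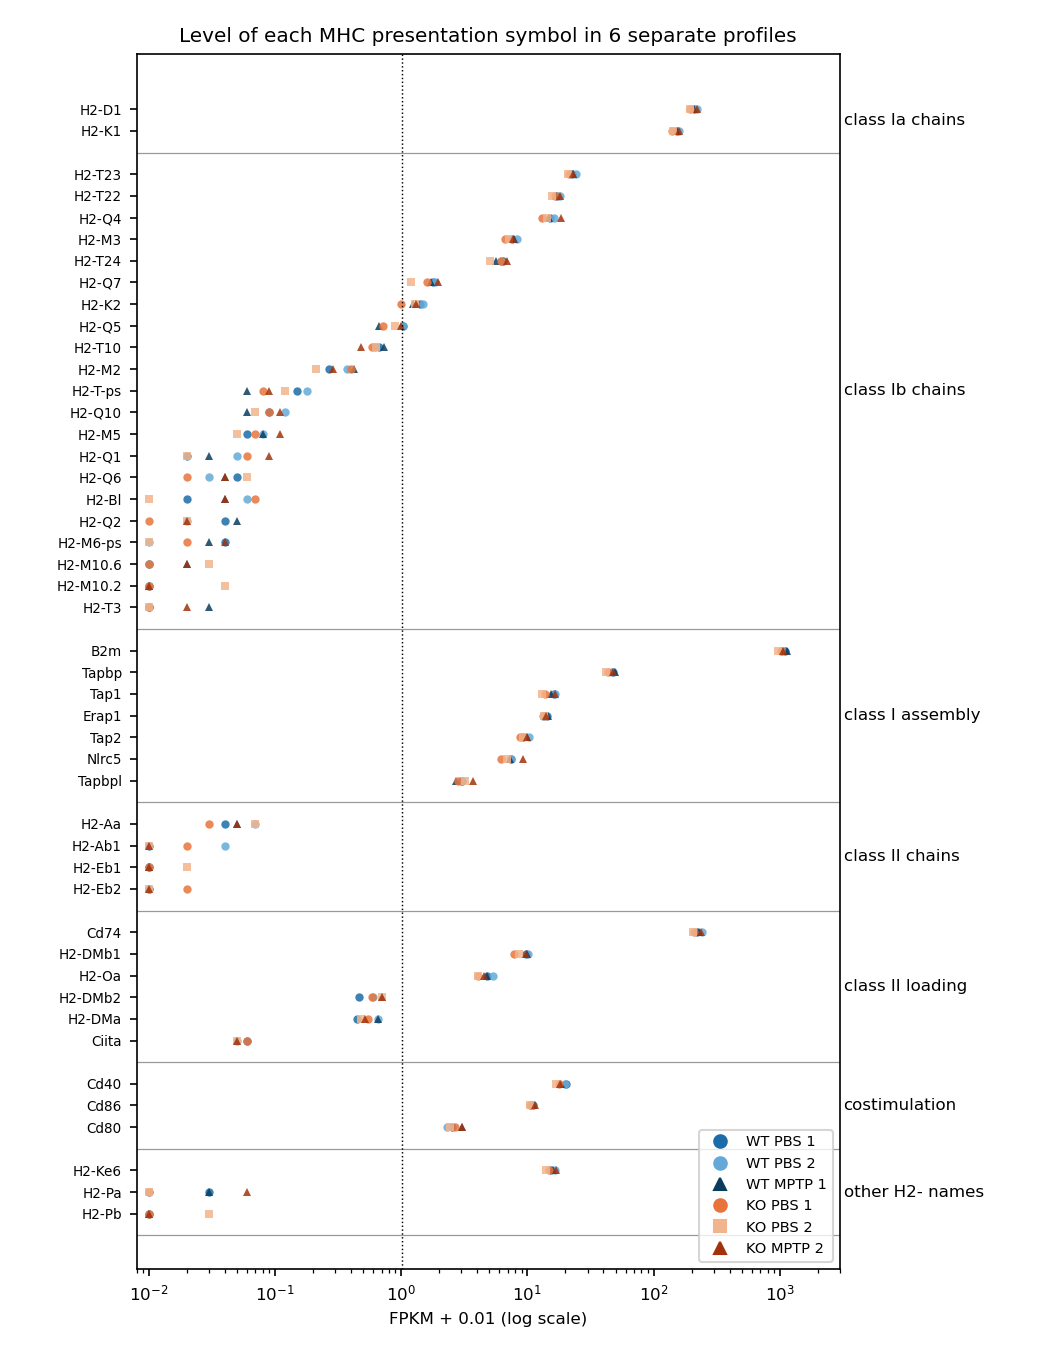
Level of each of the 46 symbols in the 6 separate profiles, as FPKM + 0.01 on a log axis, grouped by role; the dotted line marks 1 FPKM and circles, squares and triangles are profiles as in the key. H2-D1, H2-K1, the 7 class I assembly genes and Cd74 lie to the right of the line and the 4 class II chains to the left of it, and the profiles of a gene lie close together wherever its level is above 1 FPKM.

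To show what the promoters of expressed class I and unexpressed class II genes hold, the 200 bases before the transcription start are printed for 6 members. RefSeq (build GRCm38.p6; the deposited files name mm9, whose coordinates were not used) gave promoters for 29 of the 46 symbols, 26 of them on chromosome 17. Capitals mark 4 motifs, searched on both strands: CCAAT, the box bound by NF-Y; TGACG, the core of the X2 box; GGGATTCCC, a kappa B site; and GAANNGAAA, an interferon-response-like element. The motifs were chosen after these promoters had been read, CCAAT and TGACG can each match more than once, and TGACG overlaps its own complement in H2-Aa.
H2-K1 (chr17:34000348-34000547, minus strand): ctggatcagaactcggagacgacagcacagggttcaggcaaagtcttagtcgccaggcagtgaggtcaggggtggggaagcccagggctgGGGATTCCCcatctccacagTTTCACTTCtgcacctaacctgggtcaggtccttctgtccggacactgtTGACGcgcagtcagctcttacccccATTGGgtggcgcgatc
H2-D1 (chr17:35262894-35263093, plus strand): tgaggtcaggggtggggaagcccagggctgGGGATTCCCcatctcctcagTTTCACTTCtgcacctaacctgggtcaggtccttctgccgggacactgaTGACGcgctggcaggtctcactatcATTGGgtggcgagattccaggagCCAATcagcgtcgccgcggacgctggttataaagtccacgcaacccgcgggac
B2m (chr2:122147487-122147686, plus strand): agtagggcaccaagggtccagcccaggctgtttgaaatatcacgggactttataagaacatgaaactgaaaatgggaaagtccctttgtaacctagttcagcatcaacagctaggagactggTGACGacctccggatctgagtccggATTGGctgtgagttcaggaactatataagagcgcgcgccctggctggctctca
H2-Aa (chr17:34287824-34288023, minus strand): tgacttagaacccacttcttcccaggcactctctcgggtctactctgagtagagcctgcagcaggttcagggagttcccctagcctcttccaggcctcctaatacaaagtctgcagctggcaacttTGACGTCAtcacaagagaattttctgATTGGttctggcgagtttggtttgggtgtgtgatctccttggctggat
H2-Eb1 (chr17:34305667-34305866, plus strand): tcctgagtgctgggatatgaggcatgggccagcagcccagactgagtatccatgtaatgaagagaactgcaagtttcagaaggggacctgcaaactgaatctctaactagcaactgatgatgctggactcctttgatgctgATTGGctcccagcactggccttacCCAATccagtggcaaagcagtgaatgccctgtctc
H2-DMb1 (chr17:34152991-34153190, plus strand): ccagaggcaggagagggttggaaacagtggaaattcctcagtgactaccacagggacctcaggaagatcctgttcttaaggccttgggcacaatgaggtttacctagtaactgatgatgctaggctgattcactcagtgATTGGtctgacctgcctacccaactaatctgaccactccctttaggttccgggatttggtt

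H2-K1 and H2-D1 carry all 4 motifs in the same order (H2-D1 with a further CCAAT downstream), within a stretch of 99 bases that is identical at 88 positions (88.9%). TGACG is followed by the complement of CCAAT after 20 bases in H2-K1, H2-D1 and B2m and after 21 bases in H2-Aa. The pair is thus present both in highly expressed class I genes and in H2-Aa, at 0.04 FPKM. H2-Eb1 and H2-DMb1 hold CCAAT without TGACG in this window, and H2-DMb1 was at 9.36 FPKM where H2-Eb1 was listed at 0 in all but 1 profile. Among the 7 class I heavy chain promoters of genes with a mean of at least 1 FPKM, 7 held CCAAT, 6 TGACG, 5 GAANNGAAA and 3 GGGATTCCC. Among the 9 of genes under 1 FPKM the counts were 6, 0, 3 and 1. Of all 27025 promoters of this length, 30.1% held CCAAT, 15.8% TGACG, 5.01% GAANNGAAA and 0.222% GGGATTCCC. A match is a description of letters, not a site in use. Only these exact letters were searched, so a missing match does not show that a promoter lacks the element.

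The class I heavy chain symbols numbered 23, and 9 of them averaged at least 1 FPKM. H2-D1 and H2-K1 made up 83.0% ± 0.242 of the summed heavy chain level of 432 ± 25.3 FPKM. Among the nonclassical genes, H2-T23 (Qa-1, the ligand of the inhibitory receptor CD94/NKG2A) averaged 22.6 ± 1.27 FPKM, H2-T22 (a ligand of some gamma delta T cells) 17.1 ± 0.947 FPKM and H2-Q4 15.3 ± 1.93 FPKM. H2-M3, which presents formylated bacterial and mitochondrial peptides, averaged 7.50 ± 0.542 FPKM, H2-T24 6.04 ± 0.639, H2-Q7 (Qa-2) 1.67 ± 0.267 and H2-K2, which GENCODE lists as a pseudogene, 1.28 ± 0.169 FPKM. H2-Q5 and H2-T10 lay just under the limit, at 0.88 and 0.61 FPKM. The other 12 heavy chain symbols averaged at most 0.32 FPKM, the level of H2-M2.

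These genes resemble each other, and reads that fit several of them may have been split or dropped by the authors' counting. In GENCODE M21, 44.6% of the 50-base windows of the longest coding transcript of H2-T22 recur in another heavy chain gene, 41.9% of those of H2-T10, 31.55% for H2-Q7, 27.0% for H2-Q6, 22.9% for H2-Q1, 20.6% for H2-T23 and 16.5% for H2-Q4. For H2-D1 and H2-K1 the share was 11.98% and 8.79%, and for H2-M3 and H2-T24 it was 0.576% and 1.27%. The sources used here give no read length. No share was computed for H2-K2, H2-Q5, H2-T-ps and H2-M6-ps. Levels of genes with a large share, such as H2-T22, H2-T10 and H2-Q7, are uncertain.

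All 7 class I assembly genes exceeded 1 FPKM in every profile. Tapbp (tapasin) averaged 46.0 ± 2.81 FPKM, the transporter subunits Tap1 and Tap2 15.25 ± 1.51 and 9.545 ± 0.605 FPKM, and Erap1 13.9 ± 0.538 FPKM. Nlrc5, the class I coactivator, averaged 7.40 ± 1.02 FPKM, and Tapbpl, a second peptide editor related to tapasin, 3.08 ± 0.356 FPKM. In the class II group, H2-DMb1 averaged 9.36 ± 0.908 FPKM and H2-Oa 4.58 ± 0.493 FPKM. H2-DMa, the partner chain of H2-DMb1, and the copy H2-DMb2 averaged 0.54 and 0.62 FPKM. H2-DM is a dimer of an alpha and a beta chain, and the beta chain gene H2-DMb1 lay far above its alpha chain partner.

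The costimulators were all present. Cd40, which receives the CD40 ligand of T cells, averaged 18.5 ± 1.26 FPKM. The CD28 ligands Cd86 and Cd80 averaged 10.9 ± 0.420 and 2.65 ± 0.298 FPKM. Of the remaining H2- symbols, H2-Ke6, an enzyme gene that lies in the MHC and has no role in presentation, averaged 15.6 ± 1.03 FPKM, and H2-Pa and H2-Pb lay at or under 0.05 FPKM in every profile.

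Differences between profiles were small beside these differences between genes. Over the 6 profiles, the coefficient of variation of the 23 tested members had a median of 6.86%, against 5.59% for the 10636 genes tested, and it ranged from 3.87% for Cd86 to 16.0% for H2-Q7. The highest and lowest profile of a member differed by a median factor of 1.20, and by at most 1.64.

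H2-K1 was 153 and 159 FPKM in WT PBS 1 and 2, 155 in WT MPTP 1, 139.9 in KO PBS 1, 142 in KO PBS 2 and 159 in KO MPTP 2. H2-D1 was 209, 219.6, 209.6, 194, 193 and 219.6 FPKM in the same order. For both, the profiles labelled KO PBS were the lowest and KO MPTP 2 lay at the level of WT PBS 2. Cd74, at 219, 242, 230.5, 209, 204 and 238 FPKM, was likewise lowest in the 2 KO PBS profiles. So was the sum of the Tap1 rows, at 16.15, 16.6, 15.3, 13.8, 13.1 and 16.6 FPKM. The leading row of Tap1, which held 53.7% of its level, was lowest in KO PBS 1 (7.74 FPKM) but highest in KO PBS 2 (8.9 FPKM). The low sum in KO PBS 2 came from the other rows of the gene. B2m was 1109, 1036, 1137, 1030.4, 975 and 1065 FPKM, where KO PBS 1 lay close to WT PBS 2.

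KO PBS 1 and KO PBS 2 were the lowest pair of the 6 profiles for 18 of the 23 tested members (78.3%) and for 29.3% of all genes tested. The exceptions were Cd80, Erap1, H2-K2, H2-T24 and Tapbpl. After TMM rescaling, which equalizes the profiles on the trimmed mean of their log ratios, the pair was lowest for 10 of 23 members and for 6.30% of all genes. These 10 were Cd74, H2-D1, H2-DMb1, H2-K1, H2-M3, H2-Oa, H2-T23, Nlrc5, Tap1 and Tapbp. KO MPTP 2 was the highest profile for 10 of the 23 members and 28.7% of all genes, and after TMM rescaling for 7 members and 17.9% of all genes. This order was noticed in the values and not tested, and it counts KO PBS 2 under a treatment that the table leaves unsure.

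**Figure D2:**
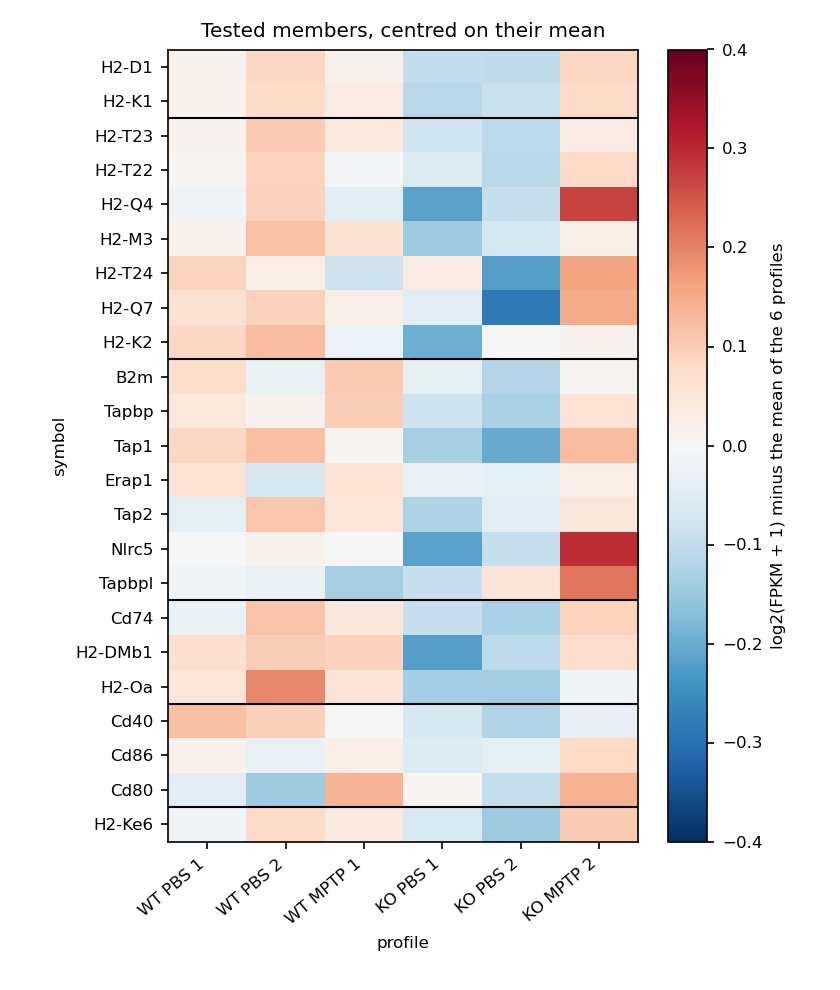
log2(FPKM + 1) of the 23 tested members in the 6 separate profiles, each row centred on its own mean, with lines between the roles; red is above the mean and blue below. The columns KO PBS 1 and KO PBS 2 are blue for most rows, and H2-Q4, Nlrc5 and Tapbpl are darkest red in KO MPTP 2.

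The response of control microglia to MPTP was compared first. Of the 23 members 0 passed the threshold (limma, adjusted p under 0.05), against 0.254% of all genes tested, and 1 had an unadjusted p under 0.05, against 2.69% of all genes. That was Cd80, at 3.00 FPKM in WT MPTP 1 against 2.54 and 2.30 FPKM in the WT PBS profiles, a log2 difference of 0.23 ± 0.10 (SE; limma, adjusted p = 1.0). WT MPTP 1 was above both WT PBS profiles for Cd80, an order that was not counted over all genes. The members' median was −0.01 with 9 of 23 above 0, where the median of all genes was 0.04 and 73.0% were above 0. After TMM rescaling the members' median was −0.06, with 4 above 0, against 51.9% of all genes. After this rescaling the median of all genes was 0.00 in each comparison except the interaction, at −0.01. The lowest difference was −0.14 for H2-T24. The sign of the members' median depended on the WT PBS profile used: with KO PBS 2 counted as KO PBS, it was −0.06 without WT PBS 1 (5 of 23 above 0) and 0.01 without WT PBS 2 (14 of 23 above 0). The shares of all genes above 0 were 67.6% and 68.0%.

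The same response in deficient microglia rests on 1 profile in each group. The largest differences were those of Nlrc5 and H2-Q4. Nlrc5 was 6.19 FPKM in KO PBS 1 and 9.24 FPKM in KO MPTP 2, with a log2 difference of 0.51 ± 0.11 (SE; limma, adjusted p = 0.115), and it lay between 6.83 and 7.43 FPKM in the other profiles. H2-Q4 was 18.6 FPKM against 12.99, a difference of 0.49 ± 0.10 (limma, adjusted p = 0.115), and between 14.25 and 16.3 FPKM elsewhere. Both were highest in KO MPTP 2 and lowest in KO PBS 1. The leading row of Nlrc5, which held 60.5% of its level, was 5.54 FPKM in KO MPTP 2 and 4.53 in KO PBS 1, against 4.08 and 4.25 in the WT PBS profiles. In that row KO PBS 1 was above both WT PBS profiles, and its lower sum came from the other rows of the gene.

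Tapbpl, H2-DMb1 and Tap1 had differences of 0.31, 0.29 and 0.25 (limma, adjusted p = 0.446, 0.437 and 0.469). Tapbpl was 3.71 FPKM in KO MPTP 2, above the 2.71 to 3.21 FPKM of the other profiles. For H2-DMb1, the summed level in KO MPTP 2 lay within the range of the WT profiles. For Tap1, the summed level in KO MPTP 2 differed from WT PBS 2 only in the second decimal (16.63 against 16.60 FPKM).

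In all, 0 of 23 members passed the threshold, against 0.291% of all genes, and 5 had an unadjusted p under 0.05, all with higher values after MPTP, against 9.24% of all genes. All 23 differences were above 0, as were 86.5% of those of all genes. The median was 0.17 for the members and 0.09 for all genes, and after TMM rescaling 0.07 for the members, with 20 of 23 above 0 and 47.9% of all genes above 0. With a stricter filter of 5 FPKM, which tested fewer genes, 2 of 18 members passed, against 0.68% of all genes. These were H2-Q4 (limma, adjusted p = 0.0286) and Nlrc5 (adjusted p = 0.0418). In the other alternatives the adjusted p ranged from 0.0848 to 0.897 for H2-Q4 and from 0.0769 to 0.876 for Nlrc5. With KO PBS 2 counted as KO PBS, 12 members had an unadjusted p under 0.05, against 10.8% of all genes, and the members' median was 0.18. With it counted as KO MPTP, 2 members did, against 5.46% of all genes, the median was 0.07, and the differences were 0.32 for Nlrc5 and 0.31 for H2-Q4. S100a8, the main part of the monocyte and granulocyte marker list, averaged 4.52 FPKM. The sum of that list was 6.33 and 6.46 FPKM in WT MPTP 1 and KO MPTP 2 and between 4.17 and 4.94 FPKM in the others, and its part in these differences was not tested.

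**Figure D3:**
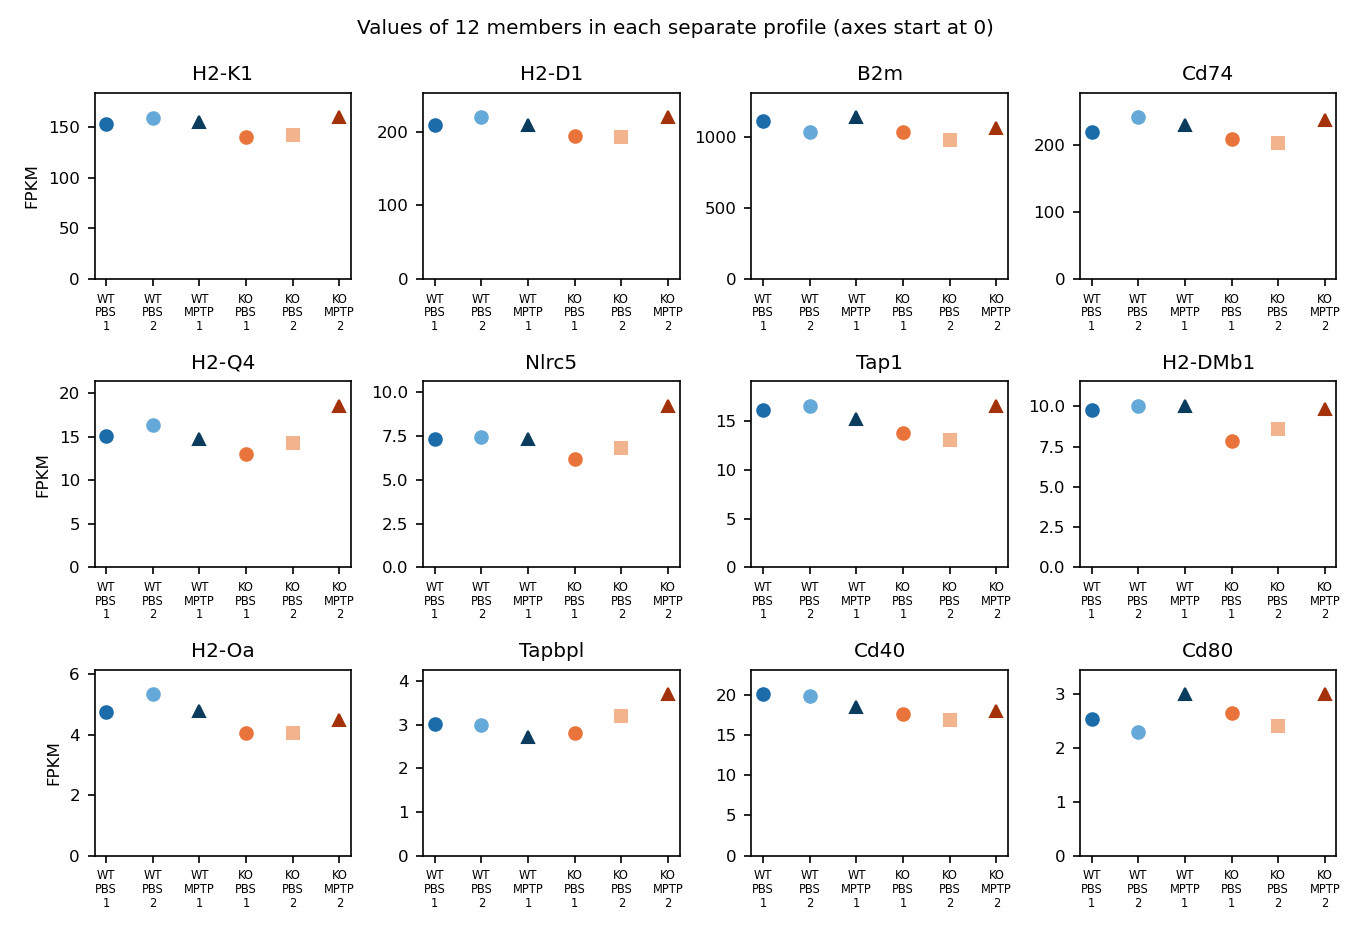
Values of 12 members in FPKM in each separate profile, with axes that start at 0; circles and the square are PBS labels and triangles MPTP, blue is WT and orange to brown KO. Nlrc5, H2-Q4 and Tapbpl stand highest in KO MPTP 2, and H2-Oa and Cd40 are lower in all 3 KO profiles than in all 3 WT profiles.

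The deficiency without the toxin was compared in KO PBS 1 against WT PBS 1 and 2. H2-DMb1 was 7.86 FPKM against 9.79 and 10.05, a log2 difference of −0.30 ± 0.09 (SE; limma, adjusted p = 0.802). KO PBS 2, which this fit did not use, held 8.60 FPKM, also under both WT PBS profiles. H2-K2, H2-Oa, H2-Q4, Tap1 and Nlrc5 had differences of −0.30, −0.26, −0.25, −0.23 and −0.22 (limma, adjusted p = 0.909 for each). For each of these 5 genes the summed level in KO PBS 2 also lay under both WT PBS profiles. The leading rows of Tap1 and Nlrc5 did not: in KO PBS 2 they lay above both. The share of all genes with KO PBS 2 under both WT PBS profiles was not counted. This order therefore cannot be read as particular to H2-DMb1 and these 5 genes. Of the 23 members 0 passed the threshold, against 0.226% of all genes, and 6 had an unadjusted p under 0.05, all lower in KO PBS 1, against 4.45% of all genes.

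The members' median was −0.14, with 22 of 23 below 0, where all genes had −0.06 and 77.9% below 0. After TMM rescaling the median was −0.08 with 18 of 23 below 0, against 49.2% of all genes. The exception above 0 on the deposited scale was Cd80, at 0.10. With KO PBS 2 counted as KO PBS, a placement that the table leaves unsure, 14 members had an unadjusted p under 0.05 (limma), against 7.35% of all genes. In that fit 22 of 23 differences were below 0, as were 71.5% of those of all genes. Counting KO PBS 2 as KO MPTP leaves KO PBS 1 alone against the same WT PBS profiles. The differences then cannot change, so that placement is no second check of their direction. The summed microglia markers were 385 FPKM in KO PBS 1, 379 in KO PBS 2 and between 409 and 426 in the others (9 in the table, Sall1 at 0). The summed macrophage markers ranged from 1758 FPKM in KO PBS 2 to 2039 in WT MPTP 1. Their part in the lower values was not tested.

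Under MPTP, KO MPTP 2 was set against WT MPTP 1, again with 1 profile in each group. Tapbpl was 3.71 FPKM against 2.71, a log2 difference of 0.34 ± 0.11 (SE; limma, adjusted p = 0.765). H2-Q4 and Nlrc5 had differences of 0.31 and 0.30 (limma, adjusted p = 0.780 and 0.928). Of the 23 members 0 passed the threshold, against 0.132% of all genes, and 3 had an unadjusted p under 0.05, against 3.62% of all genes. The median was 0.04 for the members, with 14 of 23 above 0, and −0.01 for all genes, with 45.7% above 0. After TMM rescaling it was 0.05 for the members, with 15 of 23 above 0, against 47.5% of all genes. The members' direction depended on KO PBS 2: with that profile counted as KO MPTP, their median was −0.06 with 5 of 23 above 0. All genes moved the same way, to a median of −0.04 with 31.4% above 0. The differences were then 0.13 for H2-Q4 and 0.10 for Nlrc5.

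Whether the MPTP difference itself differed between genotypes was tested as an interaction. It was 0.57 ± 0.13 for H2-Q4 (SE; limma, adjusted p = 0.281) and 0.52 ± 0.14 for Nlrc5 (adjusted p = 0.403). Of the 23 members 0 passed the threshold, against 0.0752% of all genes, and 5 had an unadjusted p under 0.05, against 5.18% of all genes. The median was 0.19, with 20 of 23 above 0, where that of all genes was 0.05 with 67.1% above 0. After TMM rescaling the median was 0.12 for the members, with 20 above 0, against 47.6% of all genes. With KO PBS 2 counted as KO MPTP it was 0.09 for the members, with 19 above 0, against 59.0% of all genes, and the value for Nlrc5 was 0.33. This comparison and those before it share profiles, so their values are not independent of each other.

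**Figure D4:**
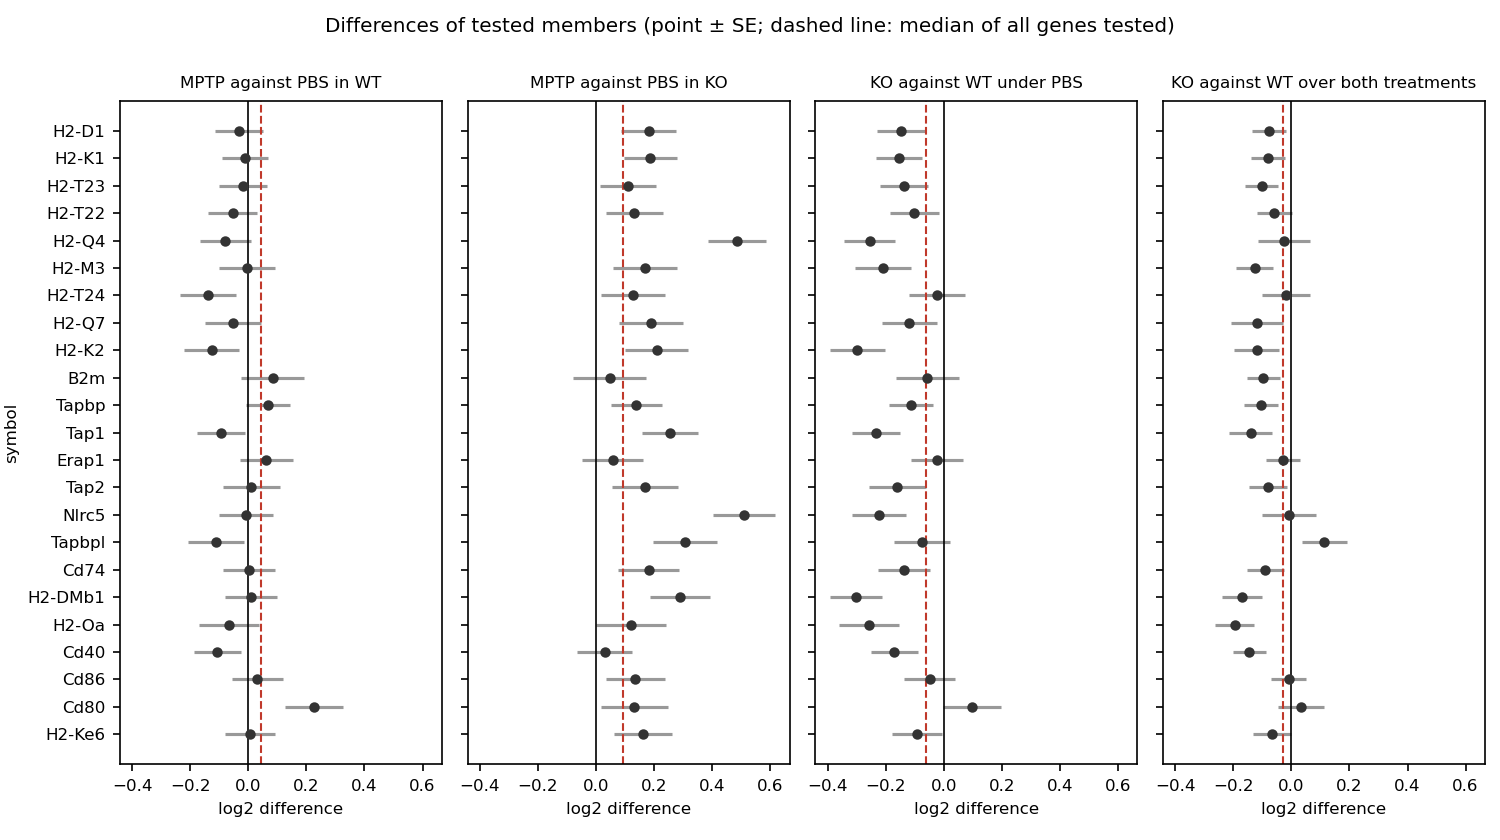
log2 difference of each of the 23 tested members in 4 comparisons, with points as estimates, bars as SE, a solid line at 0 and a dashed line at the median of all genes tested. Nlrc5 and H2-Q4 lie farthest right for MPTP in KO, and 22 of 23 members lie left of 0 for KO against WT under PBS.

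Genotype alone could be compared with 3 profiles on each side, because KO PBS 2 is a KO profile under either of its labels. H2-Oa was 4.75, 5.35 and 4.77 FPKM in the WT profiles and 4.06, 4.05 and 4.50 FPKM in the KO profiles, so that the groups did not overlap. The log2 difference was −0.19 ± 0.07 (SE; limma, adjusted p = 0.954). Cd40 was 20.2, 19.8 and 18.5 FPKM in WT and 17.7, 16.9 and 18.05 FPKM in KO, without overlap, a difference of −0.14 ± 0.06 (adjusted p = 0.997). The leading row of Cd40, which held 38.4% of its level, did overlap and was highest of the 6 profiles in KO MPTP 2, at 8.04 FPKM. H2-DMb1 differed by −0.17 ± 0.07 (limma, adjusted p = 0.997), with the summed level of KO MPTP 2 inside the WT range. Its leading row, which held 87.7% of its level, was 8.69, 8.94 and 8.50 FPKM in WT. In KO that row was 7.20, 7.76 and 8.16 FPKM, without overlap, an order that was not counted over all rows. Cd40 and H2-Oa, 2 of 23 members, lay lower in all KO than in all WT profiles, as did 7.19% of all genes. None lay higher in all KO profiles, against 0.818% of all genes. An exact permutation test of 3 against 3 cannot go under p = 0.1.

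Over this comparison 0 members passed the threshold, against 0.0752% of all genes, and 3 had an unadjusted p under 0.05, against 3.5% of all genes. The median was −0.08 for the members and −0.03 for all genes, with 21 of 23 members and 69.5% of all genes below 0. After TMM rescaling it was −0.05 for the members, with 16 of 23 and 47.5% of all genes below 0. On that scale 4 members, H2-DMb1, H2-M3, H2-Oa and H2-T23, were lower in all KO profiles, against 4.76% of all genes, and Cd40 was no longer among them. The highest difference was that of Tapbpl, at 0.11. Without KO MPTP 2, 14 members had an unadjusted p under 0.05, against 10.46% of all genes, and the median was −0.14. Without KO PBS 1 or KO PBS 2 the median was −0.05, with 3 and 1 members under that p, against 4.39% and 2.49% of all genes. Without WT PBS 2 there were 0, against 2.65% of all genes.

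For MPTP over both genotypes, with genotype in the fit and 5 profiles, 0 members passed the threshold, against 0.141% of all genes, and 1 had an unadjusted p under 0.05, against 6.6% of all genes. That was Cd80, at 3.00 and 3.01 FPKM in the MPTP profiles and 2.54, 2.30 and 2.66 FPKM in the PBS profiles. Its MPTP profiles did not overlap its PBS profiles, and the difference was 0.19 ± 0.07 (SE; limma, adjusted p = 0.574). Its partner Cd86 was 11.06 and 11.53 FPKM after MPTP, and its 3 PBS profiles lay under both, the lowest at 10.41 FPKM, a difference of 0.08. How many of all genes show this order was not counted, so it cannot be read as particular to Cd80 and Cd86. The members' median was 0.07, with 21 of 23 above 0, and that of all genes was 0.07, with 88.4% above 0. After TMM rescaling the members' median was 0.01, with 13 of 23 above 0, against 51.3% of all genes. Without KO PBS 1 or without KO MPTP 2, which leaves the WT profiles alone to inform the difference, the median was −0.01 with 9 of 23 above 0, and without WT MPTP 1 it was 0.17 with all 23 above 0. With KO PBS 2 counted as KO MPTP it was 0.04.

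Genes that supply or share the pathway were taken from 6 lists, of which 62 genes were tested. None passed the threshold in any of the 7 comparisons (limma), where 0.0752% to 0.291% of all genes did. Between 0 and 3 of the 62 per comparison had an unadjusted p under 0.05, against 2.69% to 9.24% of all genes. For each list the 2 genes of highest mean are given, and further genes were picked for their role after their values were seen. Peptide supply was led by the proteasome activator genes Psme1 and Psme2 at 90.0 and 79.6 FPKM, with the immunoproteasome genes Psmb8, Psmb10 and Psmb9 at 78.6, 41.1 and 17.2 FPKM. The chaperones of heavy chain folding, Calr and Pdia3, averaged 436 and 215 FPKM. The leading transcripts of the list for endosomal processing of class II cargo were abundant, while those of the chains were near 0. Ctsd and Ctsz averaged 1409 and 660 FPKM, Ctss, the main protease of the invariant chain, 648 FPKM, and the thiol reductase Ifi30 370.0 FPKM. Processing itself was not measured.

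Factors that CIITA and NLRC5 act with were present. Rfx5, Rfxap and Rfxank averaged 4.04, 9.53 and 8.49 FPKM, and the NF-Y genes Nfya, Nfyb and Nfyc 31.8, 4.54 and 10.33 FPKM. The signalling genes Jak1 and Ifngr2 led that list at 61.2 and 42.5 FPKM, and Irf1 lay at 5.21 FPKM. Of MHC-like genes, Mr1, which presents vitamin B metabolites, and Procr led at 22.05 and 19.0 FPKM, and Cd1d1, which presents lipids, averaged 1.02 FPKM. The other costimulatory list was led by Lgals9 and Cd48 at 33.8 and 21.1 FPKM, and Cd274 (PD-L1) averaged 10.25 FPKM.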

How the data were processed

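RNA-seq values of 12 labelled samples came as 1 table of 67355 rows. The deposited values were taken as FPKM made by the authors, because Cufflinks writes that unit; no header states it. The submitters' processing notes list CASAVA 1.5, Bowtie 0.12.7, TopHat, Cufflinks and the build mm9. How rows were defined, annotated or filtered is not given in the sources used here. The 1 row holding text was left out, and rows were summed per symbol. Copy relations were checked against rounding to 2 decimals. limma 3.58.1 in R 4.3.3, on log2(FPKM + 1) with its trended prior variance and Benjamini-Hochberg adjustment at 0.05, was run on the 10636 genes with at least 1 FPKM in at least 3 of 6 separate profiles. That scale understates the change of low genes. Fits within a genotype or treatment, and of the interaction, used 5 profiles. Only the WT PBS pair informs their spread (1 residual degree of freedom), and groups of 1 profile borrow it. MPTP over both genotypes, fitted without an interaction, had 2 residual degrees of freedom, and genotype over both treatments, on 6 profiles, had 4. The fit was tested on simulated data. Members, lists, motifs and the fit were chosen with earlier results of these data known. Named are all members with a mean of at least 1 FPKM, the class II chains, Ciita and the leading genes of each list; a few more were named after their values were seen. Alternatives were pseudocounts of 0.1 and 0.5, no filter or 5 FPKM, TMM and quantile scaling, other uses of KO PBS 2, a replicate block, profiles left out, all 12 columns, and the highest row per symbol.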

Additional observations from a re-analysis of the deposited data

How the results depend on the processing

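The number of members past the threshold was 0 in all 7 comparisons and stayed 0 under the pseudocounts of 0.1 and 0.5, no filter, TMM and quantile scaling, and both placements of KO PBS 2. Taking all 12 columns as libraries, which counts copies as replicates, gave 3 members for MPTP in WT, 10 for KO against WT under PBS, 3 under MPTP, 7 over both treatments and 2 for MPTP over both genotypes. In the same order, 20.2%, 12.4%, 14.5%, 9.62% and 27.9% of all genes passed. The filter of 5 FPKM gave 2 of 18 members for MPTP in KO, against 0.68% of all genes. For genotype over both treatments and MPTP over both genotypes, leaving out each profile in turn gave 0 to 0 members, and a replicate block gave 0. For the other 5 comparisons both were run with KO PBS 2 counted as KO PBS, so that 2 choices changed at once, leaving out WT PBS 1, WT PBS 2 or KO PBS 1, and gave 0 to 0 and 0. Replicate numbers are not shown to pair samples: differences between replicates 1 and 2 correlated at r = 0.227 between WT PBS and KO PBS, across 10636 genes, for the only such pair of groups. Counts over all genes varied more. Apart from the 12 columns they ranged from 0 to 43 for MPTP in WT (27 as reported), 0 to 52 in KO (31), 0 to 40 for genotype under PBS (24), 0 to 41 under MPTP (14), 0 to 33 for the interaction (8), 0 to 71 for genotype over both treatments (8; 71 with the replicate block) and 0 to 31 for MPTP over both genotypes (15; 29 with the block). Of 274 values for 21 named gene differences, 0 reversed and 11 moved past the threshold, 9 with the 12 columns and 2 with the 5 FPKM filter. Many of these 274 values could not reverse. A change of filter leaves a gene's log2 difference as it is, and a profile outside a comparison does not enter its difference. The absence of reversals is therefore not read as a check by all 274. Taking the highest row per symbol moved 15 of 23 levels by more than 1 SD. The order of profiles per member, and its TMM form, were chosen after seeing the data. Depth is unknown, so no counting error could be given, and values under 1 FPKM were described only.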

Other observations

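The ratio of H2-D1 to H2-K1 stayed between 1.36 and 1.38 over the 6 profiles (1.37 ± 0.0119, SD), while the summed class I heavy chain level ranged from 402 to 459 FPKM. The ratio of B2m to that sum ranged from 2.27 in WT PBS 2 to 2.60 in WT MPTP 1 (2.45 ± 0.138), and that of Cd86 to Cd80 from 3.69 in WT MPTP 1 to 4.61 in WT PBS 2. These ratios do not depend on the scaling of a profile. They were chosen after the values were seen and were not tested.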
